A study of Rattus norvegicus with 18 samples.

Results

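The 76 potassium channel probe sets described here are every probe set, other than the array's own AFFX control probe sets, whose single annotated symbol begins with Kcn, and they stand for 49 genes among 1263 probe sets in all. The cells were type-I astrocytes of rat cortex, and their RNA was hybridised to 18 arrays made for neurobiology genes. In the 4 exposed groups the culture surface carried beta-amyloid 25-35, a short piece of the amyloid peptide, for 12 hours, 1 day, 3 days or 5 days, with 3 arrays at each time. The 6 controls were grown without the peptide on laminin and nitrocellulose, and no time in culture is given for them. Controls 1 and 2 carry cerebral cortex as their source, although their titles name astrocytes, whereas the other 16 arrays carry type-I astrocytes. Where controls 1 and 2 are called cerebral cortex controls below, only that source label is meant. No label says that the arrays came from separate cultures, so the p-values below measure the spread between these arrays, which may be technical.

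Potassium channels let potassium ions pass down their electrochemical gradient and so set the resting potential of a cell and its recovery after excitation. Voltage-gated channels (Kcna, Kcnb, Kcnc, Kcnd, Kcnh and Kcnq) open on depolarization. Inward rectifiers (Kcnj) and tandem-pore leak channels (Kcnk) carry current near rest. Calcium-activated channels (Kcnma, Kcnn) link calcium to potassium flow. Astrocytes take up potassium that active neurons release, and Kcnj10, which encodes the inward rectifier Kir4.1, is known as their main channel for it.

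Probe sequences were not used here. The promoters of the genes whose probe sets passed a test are shown instead, as landmarks for the transcripts, because Kcnma1, Kcnd3 and Kcns1 are the members on which the tests below turn. Each covers 250 bases before and 50 after the annotated RefSeq start on the GRCr8 build, read 5′ to 3′ on the gene's strand, at chr15:351675-351974 on the plus strand for Kcnma1, chr2:195626066-195626365 on the plus strand for Kcnd3 and chr3:173262297-173262596 on the minus strand for Kcns1. Capitals mark GC boxes, the letters GGGCGG or their reverse CCGCCC.
Kcnma1: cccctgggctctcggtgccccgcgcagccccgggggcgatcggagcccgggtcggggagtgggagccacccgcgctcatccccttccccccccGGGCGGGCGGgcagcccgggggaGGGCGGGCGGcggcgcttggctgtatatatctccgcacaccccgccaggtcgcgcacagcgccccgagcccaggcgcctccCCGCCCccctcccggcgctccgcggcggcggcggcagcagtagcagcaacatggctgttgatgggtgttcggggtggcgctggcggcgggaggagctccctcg
Kcnd3: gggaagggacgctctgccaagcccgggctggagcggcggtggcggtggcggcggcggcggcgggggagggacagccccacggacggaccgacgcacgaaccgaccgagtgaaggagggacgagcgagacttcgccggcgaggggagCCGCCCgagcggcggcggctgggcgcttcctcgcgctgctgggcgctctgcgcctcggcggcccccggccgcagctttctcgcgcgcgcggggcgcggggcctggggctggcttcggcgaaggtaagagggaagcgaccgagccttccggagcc
Kcns1: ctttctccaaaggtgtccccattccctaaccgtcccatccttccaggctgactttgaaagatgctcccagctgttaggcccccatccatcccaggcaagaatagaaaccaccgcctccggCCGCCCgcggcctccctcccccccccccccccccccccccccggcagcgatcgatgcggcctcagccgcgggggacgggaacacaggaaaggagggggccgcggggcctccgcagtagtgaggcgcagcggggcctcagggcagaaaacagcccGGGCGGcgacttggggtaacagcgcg
The Kcnma1 window held 5 GC boxes, counting overlaps, with 78.3% G and C. The Kcnd3 window held 1 with 77.7%, and the Kcns1 window held 2 with 69.0%. Among all 33469 promoter windows the median G and C share was 51.7%, and 33.1% held a GC box, against 21 of 40 windows (52.5%) of the 36 Kcn genes with an entry. None of the 3 windows held TATAAA, TGACGTCA (the cyclic AMP response element) or CACGTG (an E box) on either strand, letters found in 14.2%, 1.83% and 6.42% of all windows. These are matches of letters and not sites of binding.

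The signal is a linear intensity that the depositors had already scaled, with a trimmed mean between 502.067 and 502.632 on every array. Signals were floored at 11.3, the 10th percentile of the table, and a probe set was called above background on an array when its signal exceeded 44.9, the 30th percentile. Probe sets above background on at least 3 arrays were tested with limma on the log2 scale, 1027 in all, with p-values adjusted by Benjamini-Hochberg over all of them and a threshold of 0.05. The arrays fell into 2 clusters by the tested probe sets that are not Kcn: cluster 1 held controls 1 and 2, the 3 arrays at 12 hours, array 3 at 1 day and array 3 at 3 days, and cluster 2 held the rest. Of 11 astrocyte markers 8 were measured, 6 of them above background on every array. Their summed signal was 24072.3 to 38020.9 in the controls, 38558.2 to 39896.6 at 12 hours, 33637.8 to 36274.2 at 1 day, 25857.4 to 33324.8 at 3 days and 41664.5 to 42339.6 at 5 days, so every 12 hours and 5 days array lay above every control. Of their 18 probe sets 1 was called higher at 12 hours and 1 at 1 day, against 0.779% and 0.0974% of all probe sets. At 3 days 15 of the 18 had a fold below 0, against 47.2% of all. The sums were not matched by every probe set, as 7 had a fold below 0 at 12 hours, against 60% of all. At 1 day and at 5 days 5 had one, against 56.3% and 63.1% of all. All 10 measured neuronal markers were above background on some array. Their summed signal was 3499 to 3703.7 at 12 hours, against 3642 to 6287.6 in the controls. Of their 17 tested probe sets 14 had a fold below 0 at 12 hours, against 60% of all, and 1 was called lower, against 0.876% of all. The summed signal of Igf2 and Pdgfrb, the measured fibroblast and vascular markers, was 3562.4 to 3748.6 at 12 hours and 644.1 to 8633.3 in the controls. It was 3562.4 to 9282.7 in cluster 1 and 491.4 to 935.3 in cluster 2. Among the other lists, 6 oligodendrocyte genes and the single microglial gene Itgam were measured, and no probe set of either was called at any time. The part of these cells in the channel values was not tested. In these bulk samples, fewer cells of a type and less RNA per cell cannot be told apart.

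Many potassium channel probe sets were dim. On all 18 arrays 17 of the 76 (22.4%) lay above background, against 635 of all 1263 (50.3%). On no array did 21 (27.6%) exceed it, against 154 of all (12.2%). The remaining 38 exceeded it on some arrays, and 33 did so on every array of at least 1 group. By array the count above background was 31 to 39. The filter kept 46 Kcn probe sets of 36 genes (60.5%), against 81.3% of all probe sets.

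**Figure D1:**
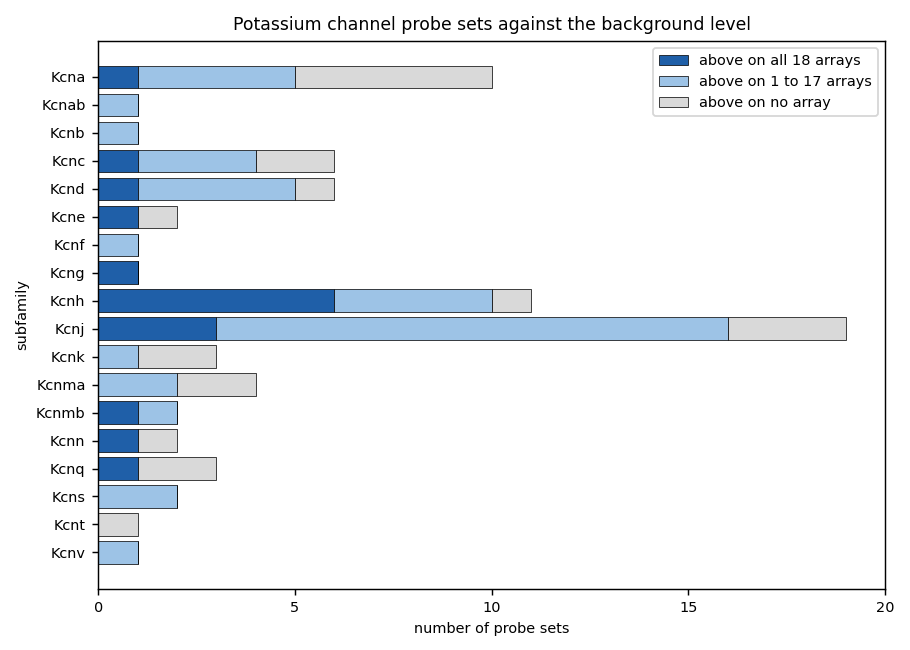
Number of Kcn probe sets (x axis) in each subfamily (y axis), split by whether the signal exceeded the background level of 44.9 on all 18 arrays, on some or on none. Kcnh has 6 of 11 probe sets above background on every array, while Kcna has 5 of 10 above it on none.

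The Kcnh group, the eag, erg and elk channels, was the most widely detected of the larger subfamilies, with 6 of 11 probe sets of 8 genes above background throughout. Kcnh3, an elk channel, ranged from 743.1 to 1566.2 on AJ007627_at. Kcnh2, the erg channel of the cardiac delayed rectifier current, had 301.8 to 641.6 on U75210_s_at. Kcnh4 and Kcnh8, the other elk genes, spanned 84.4 to 204.1 and 77.8 to 163.1 on AJ007628_at and AJ007632_s_at. Kcnh5, an eag channel, spanned 71.7 to 170.4 and Kcnh7, an erg channel, 65.3 to 144.2. An intensity also depends on the probes, so these ranges give no order of transcript levels between genes.

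Among the other voltage-gated channels, 1 of 10 Kcna probe sets (Kcna5, a delayed rectifier, 46.3 to 440.3), 1 of 6 Kcnc (Kcnc4, a fast channel, 63 to 157.7), 1 of 6 Kcnd (Kcnd3, the A-type channel Kv4.3, 157.3 to 322.8) and 1 of 3 Kcnq (Kcnq3, a subunit of the M current, 104.8 to 226.8) were above background on every array. Kcna1, Kcna2, Kcna3, Kcna4, Kcna6, Kcnc2 and Kcnd2 each had a probe set above it on no array, among them Kcna4 M32867_at (12.3 to 43.7) and Kcna6 X17621cds_at (3.6 to 35). Kcnb2, a delayed rectifier, exceeded background on 4 arrays, and Kcnab1, a beta subunit of Kcna channels, on 1. Of the electrically silent subunits, which alter Kcnb channels and form no channel alone, Kcng1 was above background throughout, at 54.6 to 128.5, and Kcnf1, Kcns1, Kcns3 and Kcnv1 on some arrays. The accessory subunit Kcne1 had 82.4 to 212.8 on D10709exon_s_at.

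Of 19 inward rectifier probe sets, 13 were above background on some arrays, 3 on none and 3 on every array, the last being 2 of Kcnj1, the channel ROMK known from kidney, and 1 of Kcnj11, the pore of ATP-sensitive channels. The glial channel gene Kcnj10 was above background on 17 arrays on X83585cds_s_at, and on 1 array on U27558_at. Kcnj2, a strong inward rectifier, and Kcnj6 and Kcnj9, which G proteins open, were above it on none. The tandem-pore gene Kcnk1 (TWIK-1) was above it on 17 arrays and both probe sets of Kcnk3 (TASK-1) on none. Kcnmb1, the beta subunit of the large-conductance calcium-activated channel, had 261 to 541 on AF020712_at, and Kcnn1, a small-conductance calcium-activated channel, 86.1 to 286.7. The other small-conductance gene, Kcnn3, and the sodium-activated Kcnt1 were above background on none.

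Several probe sets were present for 20 of the 49 genes, and only Kcnk3 had the same number of arrays above background on each. Kcne1, Kcnh8 and Kcnq3 each had one probe set above background on all 18 arrays and another on none. Kcne1 read 7.2 to 19.2 on M22412_at and Kcnq3 read 4.9 to 33.2 on AF087454_at, so the status of these genes depends on the probe set.

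Kcnma1, the pore of the large-conductance calcium-activated potassium channel, was the only Kcn gene past the threshold against the controls, at 12 hours on probe set U55995_at. Its signal in the controls was 4.8 at the lowest, 12.7 at the median and 43.9 at the highest, followed by 43.4, 48.8 and 50.2 at 12 hours, 44.7, 54.3 and 42.5 at 1 day, 16.8, 6.2 and 6.2 at 3 days and 8.8, 4.3 and 4.3 at 5 days. The highest control was control 6, and the other 5 had at most 13.8. All arrays at 12 hours and 1 day were thus above 5 of the 6 controls, at about the background level, and the arrays at 3 and 5 days were all below those at 12 hours and 1 day. The probe set exceeded background on 3 arrays, all at 12 hours or 1 day, so it passed the filter only through the groups where it was high. A count of calls among the probe sets that passed the filter is therefore no support for it. Fitted with no filter, over all 1263 probe sets, its limma adjusted p was 0.031 at 12 hours and 0.0569 at 1 day, and 0.0169 by the F-test.

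At 12 hours its log2 fold over control was 1.64 ± 0.34 (SE, limma adjusted p = 0.0382), and 1 of 46 tested Kcn probe sets was called, a share near the 1.66% of all 1027. At 1 day the fold was 1.62 ± 0.34 (SE, limma adjusted p = 0.0608), where 0.292% of all were called. The limma F-test over the 5 groups gave an adjusted p of 0.0157, with 1.66% of all probe sets called. At 3 days the fold was -0.24 ± 0.34 and at 5 days -0.43 ± 0.34 (SE). All 3 arrays at 5 days and 2 of the controls lay under the floor, so the size of the 5 days fold was not measured (limma adjusted p = 0.604).

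The p-values depended on single arrays. Without control 6 the fold was 1.94 at 12 hours and 1.93 at 1 day, with limma adjusted p-values of 1.352e-05 and 1.491e-05. The 12 hours call was lost in 18 of 32 alternative fits, with folds of 0.82 to 2.06 over all of them. It was lost without any 1 of controls 3 to 5, of the 12 hours arrays, of arrays 1 and 2 at 1 day and at 3 days, or of arrays 2 and 3 at 5 days, where the adjusted p by limma was 0.0505 to 0.161 and the fold stayed at 1.55 to 1.70. With the 2 clusters as a block the fold was 1.86 (limma adjusted p = 0.0504), and with 5 clusters as a block 1.78 (limma adjusted p = 0.588). Within cluster 1, where the 12 hours arrays met controls 1 and 2, it was 1.92 (limma adjusted p = 0.127), and without those 2 controls 1.49 (limma adjusted p = 0.0105). At 1 day the call was gained in 9 of 33 fits. Among them were the 2-cluster block (limma adjusted p = 0.0175) and the replicate block (limma adjusted p = 0.0032). In the replicate block control 6 drops out of the comparison, because no other array shares its number. The replicate block fold at 1 day, 1.90, was near the 1.93 without control 6. That fit is therefore no separate support for the call.

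The other Kcnma1 probe sets did not follow U55995_at. AF083341_s_at had a control median of 98.75 (54.8 to 125.3), with 19, 55.3 and 37.4 at 12 hours, 60.7, 19.6 and 78.5 at 1 day, 57.3, 106.2 and 90.4 at 3 days and 72.1, 99.1 and 83.9 at 5 days. It lay below all controls on 2 arrays at 12 hours and 1 at 1 day, and inside their range on the other exposed arrays. Its log2 fold was -1.42 ± 0.42 (SE) at 12 hours (limma adjusted p = 0.0881), and -1.0 ± 0.42 at 1 day (limma adjusted p = 0.389). Over the 18 arrays, which also share their groups and clusters, its Pearson correlation with U55995_at was -0.63. U93052_s_at stayed at 20.2 to 44.6 and U40603_at at 2.4 to 37.4, under background on every array. The direction for Kcnma1 therefore differs between its probe sets.

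**Figure D2:**
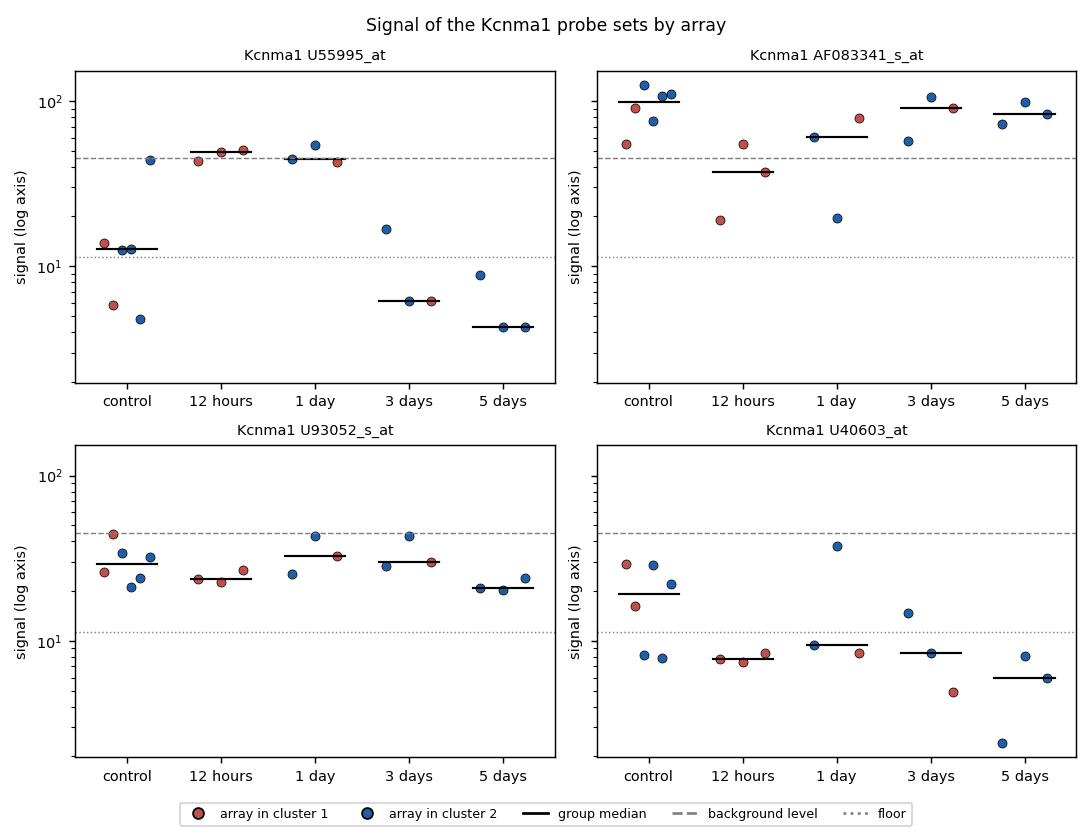
Signal on a log axis (y) of the 4 Kcnma1 probe sets by group (x), with 1 point per array coloured by array cluster, a line at the group median, a dashed line at the background level of 44.9 and a dotted line at the floor of 11.3. U55995_at is high at 12 hours, at 1 day and in control 6, whereas AF083341_s_at is below all controls on 2 arrays at 12 hours and 1 at 1 day.

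The 3 tested probe sets most alike to U55995_at over the 18 arrays were Slc1a2 rc_AI044517_at, a glial glutamate transporter, with a Pearson r of 0.76, Mif S73424_s_at, a cytokine, with 0.70, and Syt4 U14398_g_at, a synaptotagmin, with 0.70. The Slc1a2 probe set was itself dim, at 7.7 to 63.1. It exceeded background only on control 6 (62.1) and on arrays 1 and 2 at 1 day (63.1 and 51), where U55995_at was also high. It passed the filter only through those arrays. The arrays share groups and clusters, and these values are descriptions.

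No further member passed the threshold at 12 hours, and none was called lower, where 0.779% of all probe sets were called higher and 0.876% lower, though more of them had small unadjusted p-values than at any other time. Unadjusted p was under 0.05 for 17 of the 46 tested Kcn probe sets, 14 lower and 3 higher, which is 37% against 29.3% of all. On the deposited scale 32 of 46 had a log2 fold below 0, with a median of -0.31, against 60% of all probe sets with a median of -0.18. After quantile normalization, median centring and cyclic loess, the count below 0 was 26, 29 and 26, with Kcn medians of -0.09, -0.14 and -0.09, against 51%, 50.4% and 52.3% of all probe sets with medians of -0.02, -0.01 and -0.04. The arrays at 12 hours did not overlap the controls for 9 members, 8 lower and 1 higher, against 9.64% and 5.36% of all probe sets (15% in either direction).

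**Figure D3:**
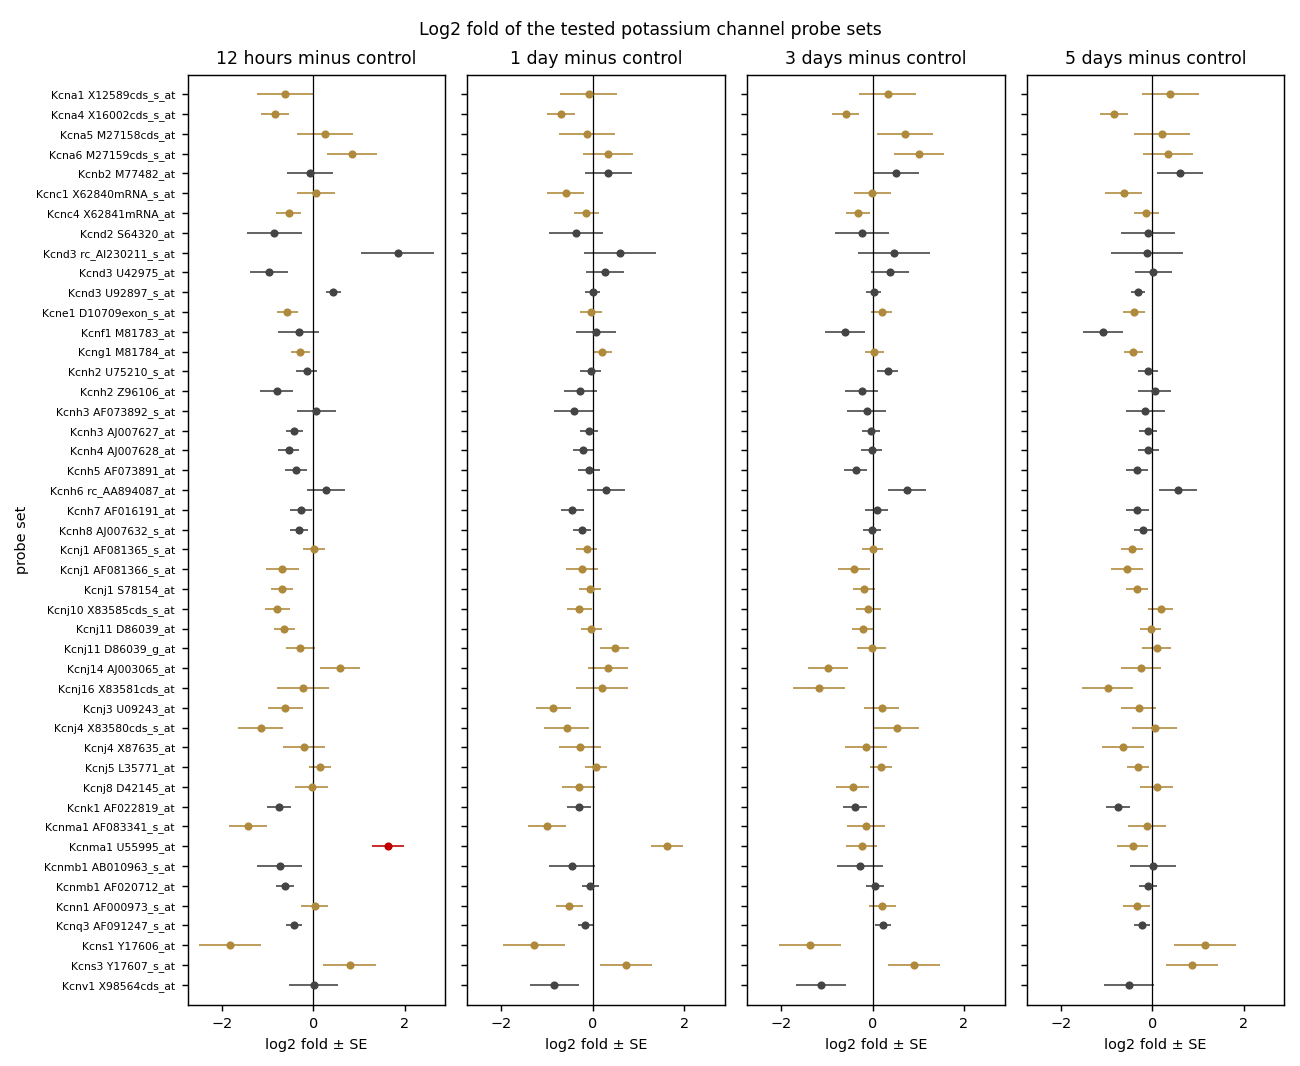
Log2 fold over control with its SE (x axis) for the 46 tested Kcn probe sets (y axis, alternate colours by subfamily) at 12 hours, 1 day, 3 days and 5 days. The red point, Kcnma1 U55995_at at 12 hours, is the only one past the threshold.

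The 8 lower members at 12 hours were Kcnh5, Kcnh8, Kcnj1 S78154_at, Kcnj11 D86039_at, Kcnk1, Kcnmb1 AF020712_at, Kcnq3 AF091247_s_at and Kcns1, and the higher one was Kcnd3 U92897_s_at. Kcnmb1 had 373.1, 273.8 and 261 at 12 hours on AF020712_at, against a control median of 456.75 (385.2 to 527.6). Its log2 fold was -0.61 ± 0.20 (SE, limma adjusted p = 0.102). On its other probe set, AB010963_s_at, control 6 stood at 218.4 with the other controls at or below 82.9, and the fold was -0.73 ± 0.50. Kcnj1 S78154_at had 200.6, 212.3 and 245.9 at 12 hours, against a control median of 364.55 (271.4 to 441.2), a log2 fold of -0.69 ± 0.24 (SE, limma adjusted p = 0.109). Its other probe sets had folds of 0.02 ± 0.23 on AF081365_s_at and -0.67 ± 0.35 on AF081366_s_at. Kcnj11 D86039_at had 140, 142.9 and 134.4 against a control median of 228.2 (148 to 280.2), all below every control, with a log2 fold of -0.63 ± 0.23 (SE, limma adjusted p = 0.111). On its other probe set, D86039_g_at, it had 80, 48.4 and 33, from above to below all controls (42.5 to 77.7), with a fold of -0.28 ± 0.31.

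The choice of controls decided how many members passed at 12 hours, where the summed neuronal marker signal was also low (3499 to 3703.7, against 3642 to 6287.6 in the controls), and the summed astrocyte marker signal was above that of every control. The part of either in these values was not tested. Without controls 1 and 2, 10 of 46 Kcn probe sets were called at 12 hours. Over all probe sets 321 of 1027 were called, a larger share. Kcna4, Kcnd3 U42975_at, Kcnh2 Z96106_at, Kcnh3 AJ007627_at, Kcnj1 S78154_at, Kcnj11 D86039_at, Kcnma1 AF083341_s_at, Kcnmb1 AF020712_at and Kcns1 were called lower, and Kcnma1 U55995_at was called higher. Leaving out control 1 alone also gave 10 of 46, near the share of all (211 of 1027), with Kcnj4 X83580cds_s_at in place of Kcnd3 U42975_at. Control 1 was the lowest of the 6 controls for every member called lower in either of these fits, except Kcns1.

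At 1 day 4 Kcn probe sets had an unadjusted p under 0.05 (8.7%, against 11.7% of all), and none passed by limma after adjustment. Both tested Kcnma1 probe sets were among them. Kcna4, an A-type channel, had 52.3, 92.2 and 64.4 at 1 day on X16002cds_s_at, against a control median of 116.25 (69.8 to 136.7), and a log2 fold of -0.69 ± 0.30 (SE, limma adjusted p = 0.408). Kcnj3, a G-protein-gated rectifier, had 17.6, 12.1 and 36.2 on U09243_at, against a control median of 32.3 (27 to 54.7), with a fold of -0.86 ± 0.38 (SE, limma adjusted p = 0.408). Its other probe set U72410_s_at ranged from 8.4 to 68 and was above background on 2 arrays. Within cluster 2, both Kcnj3 U09243_at (-1.20, limma adjusted p of 0.0186) and Kcnma1 AF083341_s_at (-1.58, limma adjusted p of 0.0456) were called. The other members with the smallest p in the upward direction were Kcnj11 D86039_g_at, at 0.48 ± 0.31, and Kcns3, at 0.73 ± 0.57. The median Kcn fold at 1 day was -0.13, against -0.05 for all. No Kcn probe set was free of overlap with the controls, against 1.75% of all.

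At 3 days 1 Kcn probe set had an unadjusted p under 0.05 (2.17%, against 4.58% of all), and limma called none of them and 0% of all. That was Kcnj14, a strong inward rectifier, with 39.2, 29.5 and 12.6 at 3 days, against a control median of 50.8 (22.7 to 91.7), and a log2 fold of -0.97 ± 0.43 (SE, limma adjusted p = 0.947). Kcnj16 (Kir5.1), which forms channels with Kcnj10, had 13.7, 9.0 and 126.1 at 3 days, against a control median of 58.05 (45.6 to 88.9). Array 3 was above every control and the other 2 were below all of them, so the fold of -1.17 ± 0.56 rests on opposed arrays. Without array 3 at 3 days it was -2.28 (limma adjusted p = 0.00455), and within cluster 2, which lacks that array, it was -2.09 (limma adjusted p = 0.0468). Kcnv1, a silent subunit, had 18.7, 23.9 and 12.1, against a control median of 44.9 (12.1 to 61.3), a fold of -1.12 ± 0.54. In the upward direction the smallest p-values belonged to Kcna6 M27159cds_s_at, a delayed rectifier, at 1.02 ± 0.54, Kcnh6, an erg channel, at 0.75 ± 0.41, and Kcns3 at 0.91 ± 0.57. No member was free of overlap with the controls, against 1.56% of all.

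At 5 days 3 Kcn probe sets had an unadjusted p under 0.05 (6.52%, against 9.15% of all), all lower, and limma called none of them and 0% of all. Kcnk1, the tandem-pore leak channel, had 39.4, 76.2 and 68.8 at 5 days, against a control median of 94.2 (84 to 146). Every 5 days array was below every control, which 3.21% of all probe sets showed in that direction, and the log2 fold was -0.76 ± 0.26 (SE, limma adjusted p = 0.469). Kcnk1 had also been below all controls at 12 hours, with 51.4, 69.1 and 58.6 and a fold of -0.75 ± 0.26. Kcna4 X16002cds_s_at had 53.1, 61.7 and 71, overlapping only control 1, with a fold of -0.83 ± 0.30. Kcnf1, a silent subunit, had 18.6, 29.5 and 35.8, against a control median of 57.25 (22.9 to 107), with a fold of -1.07 ± 0.44. Kcnj16, with 36.3, 44.5 and 18.3, was the other member below all controls, its fold being -0.97 ± 0.56. None was above all controls, where 2.14% of all probe sets were. The smallest p-values in the upward direction belonged to Kcns1, Kcns3 (0.87 ± 0.57) and Kcnh6 (0.57 ± 0.41).

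Kcns1, a silent subunit of Kcnb channels, was high on some controls and low on others. Its signal on Y17606_at was 104.7, 119.5 and 134.9 in controls 4 to 6 and 58.2, 138.9 and 114.7 at 5 days. On the other 12 arrays it was 10.5 to 20.3, controls 1 to 3 included. Divided into 5 clusters by probe sets that are not Kcn, the arrays placed controls 4 to 6 with the 5 days arrays, so the high Kcns1 arrays were those of 1 cluster. Its log2 fold over control was -1.81 ± 0.68 (SE) at 12 hours, -1.29 ± 0.68 at 1 day, -1.36 ± 0.68 at 3 days and 1.16 ± 0.68 at 5 days, with limma adjusted p-values of 0.114, 0.511, 0.947 and 0.539. With the replicate block, in which controls 4 to 6 have numbers of their own and drop out of the comparison, the 5 days fold was 2.61 (limma adjusted p = 0.00055). Same-numbered 5 days and control arrays did not deviate together, with correlations of -0.097 to 0.08. With the 5 clusters as a block the 5 days fold was -0.29. Control labels do not say how controls 1 to 3 and 4 to 6 differ.

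**Figure D4:**
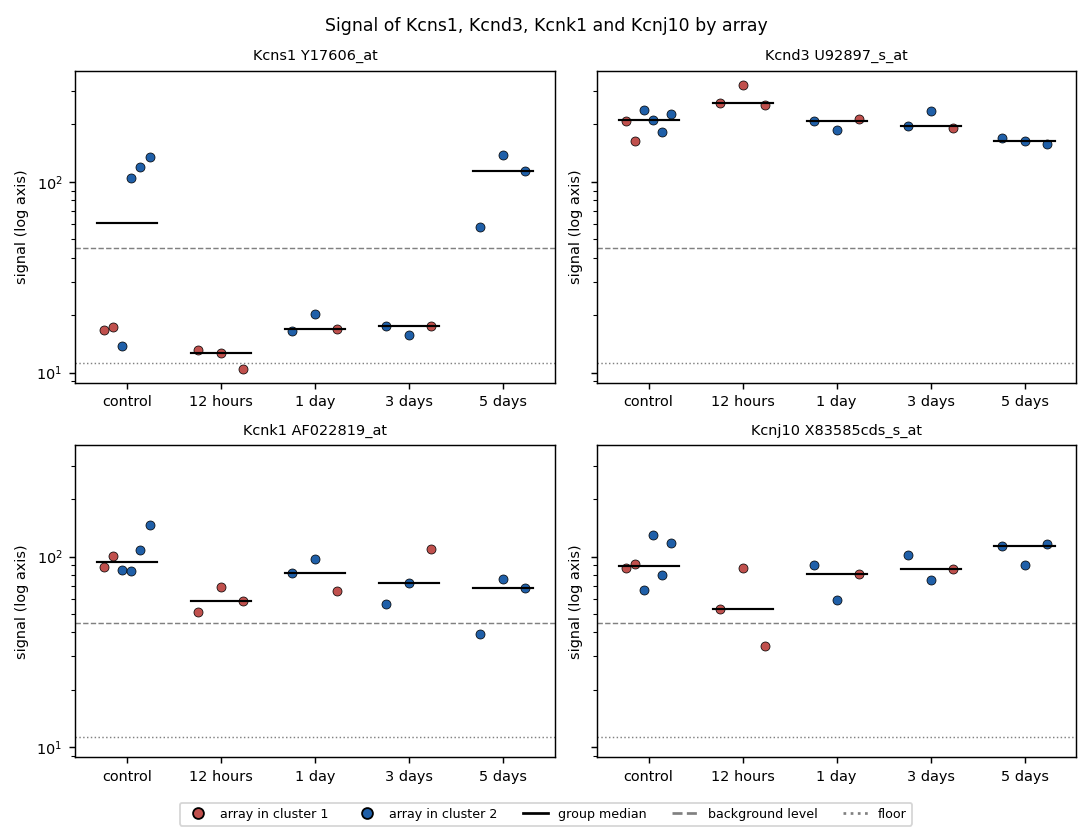
Signal on a log axis (y) of Kcns1, Kcnd3, Kcnk1 and Kcnj10 by group (x), with 1 point per array coloured by array cluster, a line at the group median, a dashed line at the background level of 44.9 and a dotted line at the floor of 11.3. Kcns1 is high on controls 4 to 6 and the 5 days arrays, and Kcnd3 U92897_s_at, the Kcnd3 probe set plotted, is highest at 12 hours and lowest at 5 days.

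Kcnd3, the A-type channel Kv4.3, had a control median of 210.45 (163.2 to 237.2) on U92897_s_at, with 260.6, 322.8 and 252.2 at 12 hours, 209.4, 186.3 and 214.8 at 1 day, 196.9, 235.6 and 191.7 at 3 days and 169.7, 164.3 and 157.3 at 5 days. The 12 hours arrays exceeded all the others, and among the controls the 5 days arrays overlapped only control 2. The log2 fold over control was 0.44 ± 0.16 (SE) at 12 hours (limma adjusted p = 0.111), and -0.31 ± 0.16 at 5 days (limma adjusted p = 0.52). rc_AI230211_s_at had 81, 110 and 105.6 at 12 hours, against a control median of 31.15 (8.3 to 88.8), with a fold of 1.85 ± 0.79. U42975_at ran the other way, with 40, 107.6 and 19.9 against a control median of 93.9 (48.7 to 116) and a fold of -0.96 ± 0.41. M74898cds_s_at exceeded background on 1 array, at 80.5 at 1 day. Pearson correlations over the 18 arrays were 0.58 between U92897_s_at and rc_AI230211_s_at and -0.25 between U92897_s_at and U42975_at.

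Kcnj10, the glial inward rectifier, had on X83585cds_s_at a control median of 89.25 (66.6 to 129.7), with 53.4, 87.3 and 34 at 12 hours, 90.7, 58.9 and 81 at 1 day, 102.3, 75.7 and 86.2 at 3 days and 113, 90.3 and 116.2 at 5 days. Only at 12 hours were 2 arrays below all controls. The log2 fold was -0.78 ± 0.28 (SE) there (limma adjusted p = 0.111), -0.30 ± 0.28 at 1 day, -0.09 ± 0.28 at 3 days and 0.19 ± 0.28 at 5 days. U27558_at read 17.7 to 22.3 at 12 hours, against 26.2 to 52.1 in the controls, under background on all but 1 array.

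The remaining subfamilies are represented by the member with the smallest F-test p, none of which passed by limma. Kcnc1, a fast delayed rectifier, had folds of 0.06 at 12 hours and -0.63 ± 0.41 at 5 days on X62840mRNA_s_at. Kcnb2 stayed between -0.08 and 0.60, each with an SE of 0.51. Kcne1 had 165.9, 92.7 and 82.4 at 12 hours, against a control median of 160.2 (121.6 to 212.8), with a fold of -0.56 ± 0.24. Kcng1 reached -0.41 ± 0.21 at 5 days. Kcnh4 had 95.3, 111.1 and 84.4 at 12 hours, against a control median of 145.8 (97.6 to 204.1), and a fold of -0.53 ± 0.23. Kcnn1 reached -0.52 ± 0.30 at 1 day. Kcnq3 AF091247_s_at had 116.2, 104.8 and 127.3 at 12 hours, against a control median of 153.05 (127.5 to 182.7), with a fold of -0.42 ± 0.17 and a limma adjusted p of 0.133.

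Exposure times were also compared with each other, which leaves the control means out. Between 5 days and 12 hours 3 of 46 Kcn probe sets passed, a smaller share than the 16.5% of all probe sets. Kcnma1 U55995_at fell by 2.07 on the log2 scale, which is at least 4.19-fold lower because all 5 days arrays were under the floor (limma adjusted p = 0.0107). Kcnd3 U92897_s_at fell by 0.76 ± 0.18 (SE, limma adjusted p = 0.0264), its 5 days arrays lying below all 12 hours arrays. Kcns1 rose by 2.98 ± 0.78 (SE, limma adjusted p = 0.0314), its 5 days arrays lying above all 12 hours arrays. Kcnj10 X83585cds_s_at had a difference of 0.97 ± 0.32 (limma adjusted p = 0.0502). All 12 hours arrays lay in cluster 1 and all 5 days arrays in cluster 2, so time and cluster cannot be told apart within these 6 arrays. With the 2 clusters as a block none of the 3 passed, and calls over all probe sets went from 169 to 0. The difference was then -2.41 for Kcnma1 (limma adjusted p = 0.0735) and -0.87 for Kcnd3 (limma adjusted p = 0.15), both larger than without the block, and 1.96 for Kcns1 (limma adjusted p = 0.327). With the 5 clusters as a block it was -2.49, -0.74 and 0.15 for Kcnma1, Kcnd3 and Kcns1. The Kcnd3 and Kcns1 calls were also lost without any 1 array of either time (limma adjusted p of 0.0539 to 0.0951 for Kcnd3 and 0.0537 to 0.103 for Kcns1), and the Kcnma1 call without array 2 at 12 hours (limma adjusted p of 0.0551). The sizes moved little in the fits that left out 1 array, from -0.83 to -0.65 for Kcnd3, 2.72 to 3.35 for Kcns1 and -2.13 to -2.03 for Kcnma1. With no filter all 3 passed by limma, with adjusted p-values of 0.0164 for Kcnma1 and Kcnd3 and 0.0418 for Kcns1.

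Between 3 days and 12 hours, Kcnma1 U55995_at fell by 1.88 ± 0.39 (SE, limma adjusted p = 0.0255), and 2.24% of all probe sets were called. Arrays 2 and 3 at 3 days lay under the floor, so its drops to 3 days are understated. The difference was -2.10 (limma adjusted p = 0.0307) with the 2-cluster block, and -1.71 (limma adjusted p = 0.64) with the 5-cluster block. Those blocks gave 26 and 1 calls over all probe sets. Without any 1 array at 12 hours, or array 1 or 2 at 3 days, it missed the threshold (limma adjusted p of 0.083 to 0.102), with differences of -2.07 to -1.78. Between 3 days and 1 day its difference was -1.86 ± 0.39 (limma adjusted p = 0.0893), with 0.0974% of all called. Between 5 days and 1 day it was -2.05 ± 0.39 (limma adjusted p = 0.0529), with 0% of all called. That is at least 4.15-fold lower, because all 5 days arrays were under the floor. With the 2-cluster block both of these passed, at limma adjusted p-values of 0.029 and 0.0123. Calls over all probe sets also rose with that block, from 1 to 13 between 3 days and 1 day. Between 5 days and 1 day they rose from 0 to 36. No Kcn probe set was called between 1 day and 12 hours (0%) or between 5 days and 3 days (0.292%). These comparisons share the arrays of each time.

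**Figure D5:**
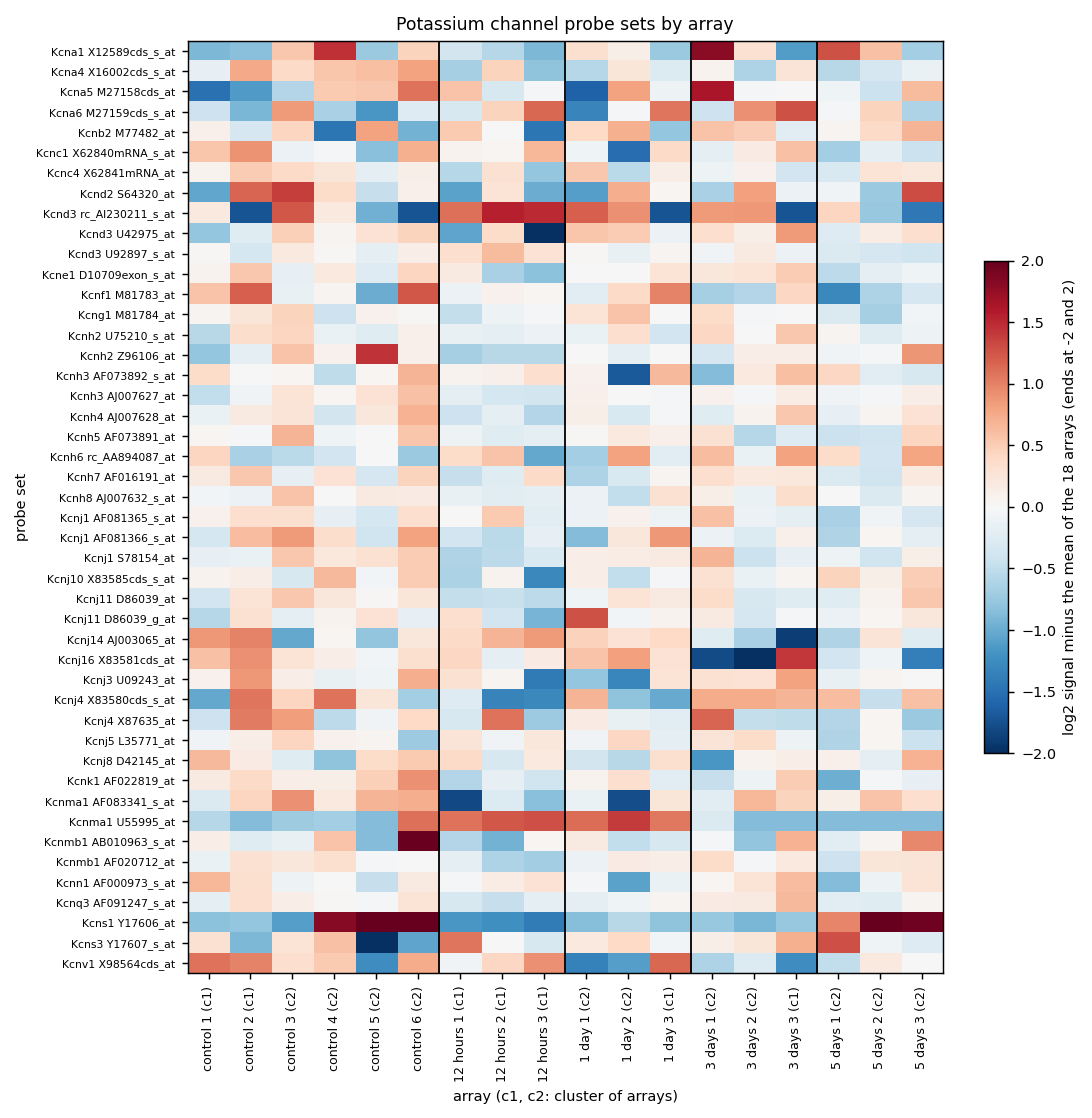
Log2 signal minus the mean of the 18 arrays (colour, ends at -2 and 2) for the 46 tested Kcn probe sets (y axis) on each array (x axis, with its cluster), grouped as controls, 12 hours, 1 day, 3 days and 5 days. Kcnma1 U55995_at stands out at 12 hours and 1 day, and Kcns1 on controls 4 to 6 and at 5 days.

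The 2 array clusters were also set against the channel values. No tested Kcn probe set of 46 separated the clusters without overlap, against 153 of 1027 (14.9%). The clusters took 15.3% of the sum of squares of the Kcn probe sets and the 5 groups 34.6%, against 47.9% and 39.6% over all tested probe sets. The median residual SD was 0.52 for Kcn and 0.49 for all. The clusters were built without Kcn but with most of the probe sets in that total, so the comparison is a description.

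Of 38 other genes that move potassium or bind its channels, 9 were measured on 12 probe sets, 11 of them tested, and limma called none against control at any time. Atp1b2, the glial beta subunit of the sodium-potassium pump, passed the F-test on J04629_at (limma adjusted p = 0.0414), as 1.66% of all probe sets did. It had a control median of 490.8, against medians of 272.1 at 12 hours, 628.5 at 1 day, 331.9 at 3 days and 1361.6 at 5 days, and its 5 days fold was 1.31 ± 0.33 (SE, limma adjusted p = 0.206). The exposed arrays at 5 days (854.7 to 1531) lay above all controls (315.4 to 836.2), which 2.14% of all probe sets showed in that direction. The other Atp1b2 probe set, D90048exon_g_at, did not pass the F-test (limma adjusted p = 0.0889). Its 5 days arrays (596.9 to 988.3) overlapped the controls (84.6 to 661). Abcc9, the sulfonylurea receptor that pairs with Kcnj8 and Kcnj11, had folds of -0.73 to -0.31. Gja1, the astrocyte gap junction protein, had 5812 to 6132.7 at 12 hours, against 810.6 to 8604.3 in the controls.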

How the data were processed

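Total RNA of 18 rat astrocyte samples was measured on arrays of 1322 probe sets, and all samples were grouped by their labels into 6 controls and 3 arrays at each of 4 exposure times. In the deposited table each probe set has 1 linear intensity, called signal, for every array. The software behind it is not given in the sources used here. The depositors had scaled the arrays, since their means trimmed by 2% at each end lay between 502.067 and 502.632, and no further scaling was applied. No detection calls were used. Identical values made up at most 0.681% between 2 arrays.

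Leaving out 59 AFFX control probe sets, signals were floored at the 10th percentile (11.3), and log2 was taken, so folds of dim probe sets are understated. Of 1263 probe sets, 1027 above the 30th percentile (44.9) on at least 3 arrays were fitted in 1 model of 5 groups with limma 3.58.1 (lmFit, eBayes) in R 4.3.3, with 13 residual degrees of freedom. Tests were two-sided, adjusted by Benjamini-Hochberg over all 1027 at 0.05. The number of arrays limits the precision. Symbols came from the platform annotation, all 49 Kcn genes matched the RefSeq gene table, and each probe set was kept on its own.

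Members, lists and tests were chosen with earlier results of these data known. Named were members past the threshold, the smallest F-test p in each other subfamily, the 3 smallest p-values per comparison and direction, all probe sets of those genes, and Kcnma1 and Kcnj10, 24 genes in all. Members without overlap with the controls, and members called under an alternative, were named after their values were seen. Array clusters came from an average-linkage tree with 1 minus Pearson's r as the distance. Alternatives covered scaling, floor, filter, variance model, 2-group fits, a replicate block, the clusters as a block or one at a time, and left-out arrays. Same-numbered arrays deviated together only for 3 days and 1 day, with correlations of 0.39, 0.429 and 0.683. Array 3 of each of these groups was the only one in cluster 1. The comparisons between times, and their blocks, were added after seeing the data.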

Additional observations from a re-analysis of the deposited data

Results flagged for a closer look

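Kcnma1 U55995_at had a signal of 43.9 in control 6, far from the other controls, which had 4.8 to 13.8. Kcnv1 had 12.1 in control 5, against 36.2 to 61.3 in the other controls. Of 31 members checked for a control apart from the rest, these 2 stood out, and chance marks about 1 in 20.

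For 4 differences between exposure times the test of the difference itself passed by limma. Kcnma1 U55995_at had a difference of -1.88 at 3 days minus 12 hours (adjusted p of 0.0255) and of -2.07 at 5 days minus 12 hours (adjusted p of 0.0107). Kcnd3 U92897_s_at had -0.76 at 5 days minus 12 hours (adjusted p of 0.0264), and Kcns1 had 2.98 (adjusted p of 0.0314). All 12 hours arrays lay in cluster 1 and all 5 days arrays in cluster 2. With the 2 clusters as a block the 3 differences between 5 days and 12 hours missed the threshold, and 0 of all probe sets passed it. The 3 differences were then -2.41 for Kcnma1, -0.87 for Kcnd3 and 1.96 for Kcns1 (limma adjusted p of 0.0735, 0.15 and 0.327). Those of Kcnma1 and Kcnd3 were larger than without the block. Kcnma1 U55995_at passed the filter on dim probe sets only through the 12 hours and 1 day arrays. With no filter its 2 differences had limma adjusted p-values of 0.0312 and 0.0164.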

How the results depend on the processing

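No alternative reversed a called result. Counts of calls moved widely, and the causes were not tested. By limma, Kcn calls at 12 hours (1 as reported) became 0 with a floor at the 5th percentile, a filter at the 50th, trend and robust options, fits of 2 groups, either cluster block and within cluster 1, and 10 without both cerebral cortex controls. The filter at the 50th percentile removed Kcnma1 U55995_at before any test, here and by the F-test. Its highest signal was 54.3, and the lowest array median was 101.6. Kcn calls at 1 day (0 as reported) became 1 with quantile, median or loess scaling, the replicate block, the 2-cluster block, without those controls and without array 3 at 1 day and 3 days together, and 2 within cluster 2. At 3 days (0) they became 1 within cluster 2 and without both arrays 3, and at 5 days (0) 1 with the replicate block. By the F-test (1) they became 0 with the filter at the 50th percentile or 5 clusters, and 2 with the replicate block, without the cerebral cortex controls or without both arrays 3. Between times, calls at 3 days against 12 hours (1) became 0 with 5 clusters, at 5 days against 12 hours (3) 0 with either block, and at 3 and 5 days against 1 day (0) 1 each with 2 clusters. Over all probe sets the same calls went, in that order, from 23 to 1, 169 to 0, 1 to 13 and 0 to 36. Members above background throughout (17) became 6 at the 50th percentile and 25 at the 20th.

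Over all probe sets, calls at 12 hours (17) became 9 with quantile and 4 with loess scaling, 27 without the filter, 1 in the fit of 2 groups, 3 with the replicate block, 321 without the cerebral cortex controls, 3 with 2 clusters, 0 with 5 clusters and within cluster 1, and 30 without both arrays 3. At 1 day (3) they became 1 with the 20th percentile floor, the 50th percentile filter, the replicate block or 5 clusters, 0 with 2 groups and within cluster 1, 59 without the cerebral cortex controls, 30 with 2 clusters, 123 within cluster 2 and 38 without both arrays 3. At 3 days (0) they became 6 with 5 clusters and within cluster 2, 1 within cluster 1 and 5 without both arrays 3. At 5 days (0) they became 2 under each other scaling, 1 with the 20th percentile floor and 61 with the replicate block. By the F-test (17) they became 6 with quantile, 8 with median or loess scaling and without the filter, 7 with the 50th percentile filter, 45 with the replicate block, 219 without the cerebral cortex controls, 26 with 2 and 3 with 5 clusters, and 90 without both arrays 3. Potassium handling calls (0) became 3 with the replicate block and 5 without the cerebral cortex controls.

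Leaving out 1 array at a time gave 0 to 10 Kcn calls at 12 hours (1 to 211 over all probe sets), 0 to 1 at 1 day (0 to 26), 0 to 1 at 3 days (0 to 3), 0 at 5 days (0 to 2), 0 to 2 by the F-test (1 to 114) and 0 to 4 potassium handling calls. Control 1 gave the highest count at 12 hours. In those fits Kcnma1 U55995_at had folds of 1.55 to 1.94 at 12 hours and 1.52 to 1.93 at 1 day. For 3 days and 1 day, the numbers of which may pair, the fit of these groups called 0 with and without the replicate block, and Kcnma1 U55995_at had -1.86 (limma adjusted p = 0.184 and 0.141). With 5 clusters as a block the 12 hours arrays are set against a lone control, control 1. Dim signals limit 30 of the 76 members, which were not tested.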
